A study of Homo sapiens with 3 samples.

Results

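The 8 genes FOSL1, FOS, FOSB, FOSL2, JUN, JUNB, JUND and ATF3 encode the Fos and Jun proteins and one ATF protein that pairs with Jun. The p300/CBP peaks at these genes were chosen by position alone, as the peaks whose centre lay within 100 kb of the annotated transcription start site (TSS) of a member gene on hg19. This gave 121 of 82901 peaks in control cells (siCTL) and 82 of 39320 peaks in cells treated with siRNAs against Fra-1 (siFra-1). Both groups were cells of MDA-MB-231, an established human line of basal, triple-negative breast cancer, that received siRNA at 4.5 nM and were fixed 72 h later for 7 min, and the siFra-1 group received a mix of 3 siRNAs. DNA bound by p300/CBP was recovered with 1 antibody to both proteins and sequenced (ChIP-seq), and 2 of the 3 samples of the series have a peak list. The third sample, input DNA, was not analysed here. Replicate immunoprecipitations were pooled before library preparation, so each group is 1 library with no replicate, and the spread between replicates, against which a difference would be judged, is unknown. Intervals are at 95% and reflect counting error alone. The read depth is unknown, the lists give no peak height, and they measure neither Fra-1 itself nor the identity of the cells.

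AP-1 is a dimer of basic leucine zipper proteins, usually of a Fos protein (Fos, FosB, Fra-1 or Fra-2) with a Jun protein (c-Jun, JunB or JunD), which binds the palindrome TGAGTCA, read as TGACTCA on the other strand. Several of its genes are immediate early genes, transcribed within minutes of a growth signal, and some are themselves bound by AP-1 or related factors. p300 and CBP are related lysine acetyltransferases that transcription factors bring to enhancers and promoters, so peaks of p300/CBP often mark active regulatory regions. The comparison addressed whether depletion of Fra-1, the product of FOSL1, was accompanied by a change of p300/CBP at its own gene and at the genes of its relatives and partners.

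The member genes are spread over 5 chromosomes. On hg19, FOSL1 lies at chr11:65659520-65668044 on the minus strand, FOS at chr14:75745529-75748933 on the plus strand, FOSB at chr19:45971253-45978437 on the plus strand and FOSL2 at chr2:28615315-28640184 on the plus strand. JUN lies at chr1:59242517-59249720 on the minus strand, JUNB at chr19:12902300-12904129 on the plus strand, JUND at chr19:18390504-18392432 on the minus strand and ATF3 at chr1:212738676-212794119 on the plus strand. The windows differ in how crowded they are. No other protein-coding gene starts within 100 kb of FOS, 1 starts near each of FOSL2, JUN and ATF3, and 7, 9, 11 and 14 start near FOSB, JUND, FOSL1 and JUNB. The member was the nearest protein-coding start for 53 of the 121 siCTL peaks and for 38 of the 82 siFra-1 peaks, so most peaks in these windows lay nearer to another gene. At the peak centre, 20 siCTL peaks were in an exon, 65 in an intron and 36 between genes, and the siFra-1 peaks numbered 12, 37 and 33. In the outermost 10 kb inside the windows there were 10 siCTL peaks, 3 of them at least 250 bp wide, and 7 siFra-1 peaks, 4 of them that wide. In the 10 kb just outside there were 8 and 5, with 0 and 1 that wide.

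The sequences around the AP-1 motifs of the wide member peaks are shown first, since Fra-1 is one of the proteins that bind it. They were read from the GRCh37 assembly, plus strand, and include 30 bases on either side of the motif or motifs. Capitals mark TGAGTCA or TGACTCA, and also TGACATCA, a related motif known from the JUN promoter, and TGACGTCA, the cAMP response element (CRE). Distances are from the TSS, negative upstream.
FOSL1 -15.3 kb, chr11:65683272-65683422, between genes, in a peak of 750 bp in siCTL and 850 bp in siFra-1: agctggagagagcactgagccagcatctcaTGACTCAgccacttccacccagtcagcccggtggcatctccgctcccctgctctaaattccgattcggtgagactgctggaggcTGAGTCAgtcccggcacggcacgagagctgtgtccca
FOSL1 -11.0 kb, chr11:65679026-65679114, between genes, in a peak of 650 bp in both lists: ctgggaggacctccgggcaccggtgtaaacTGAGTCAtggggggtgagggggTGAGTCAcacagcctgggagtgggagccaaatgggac
FOSL1 +1.2 kb, chr11:65666827-65666893, in an intron of FOSL1, in a siCTL peak of 250 bp: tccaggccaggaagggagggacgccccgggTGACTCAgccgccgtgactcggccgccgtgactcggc
FOSB -43.5 kb, chr19:45927670-45927736, in an intron of ERCC1, in a peak of 500 bp in siCTL and 300 bp in siFra-1: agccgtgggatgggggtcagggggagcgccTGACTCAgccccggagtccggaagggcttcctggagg
FOSB -12.0 kb, chr19:45959122-45959404, in an intron of ERCC1, in a siCTL peak of 450 bp: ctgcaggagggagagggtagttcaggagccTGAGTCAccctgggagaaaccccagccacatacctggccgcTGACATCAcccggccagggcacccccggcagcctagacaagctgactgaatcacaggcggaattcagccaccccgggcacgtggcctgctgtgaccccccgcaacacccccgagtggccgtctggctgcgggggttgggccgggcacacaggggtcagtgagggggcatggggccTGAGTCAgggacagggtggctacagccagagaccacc
FOSL2 +17.0 kb, chr2:28632302-28632368, in an intron of FOSL2, in a siCTL peak of 250 bp: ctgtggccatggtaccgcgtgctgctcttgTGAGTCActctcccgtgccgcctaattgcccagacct
FOSL2 -33.1 kb, chr2:28582231-28582298, between genes, in a peak of 700 bp in siCTL and 850 bp in siFra-1: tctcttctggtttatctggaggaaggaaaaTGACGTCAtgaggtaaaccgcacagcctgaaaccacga
JUN -65.0 kb, chr1:59314640-59314706, in an intron of the long non-coding RNA LINC01135, in a peak of 800 bp in siCTL and 700 bp in siFra-1: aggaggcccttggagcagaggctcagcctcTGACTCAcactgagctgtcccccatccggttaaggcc
JUN -97.6 kb, chr1:59347292-59347408, in an intron of LINC01135, in a peak of 250 bp in siCTL and 450 bp in siFra-1: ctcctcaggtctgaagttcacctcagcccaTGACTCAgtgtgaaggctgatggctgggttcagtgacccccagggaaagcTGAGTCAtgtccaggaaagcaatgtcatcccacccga
JUN -99.4 kb, chr1:59349114-59349180, in an exon of the long non-coding RNA LINC02777, in a peak of 450 bp in siCTL and 550 bp in siFra-1: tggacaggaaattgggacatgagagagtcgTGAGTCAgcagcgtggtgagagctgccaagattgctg
JUND -93.0 kb, chr19:18485384-18485450, between genes and beside the start of GDF15, in a peak of 350 bp in both lists: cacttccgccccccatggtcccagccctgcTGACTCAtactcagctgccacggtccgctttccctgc
All AP-1 motifs of peaks that were wide in siCTL are among them. The FOSL1 sequence at +1.2 kb, the JUN sequence at -97.6 kb and the FOSL2 sequence at -33.1 kb, which holds a CRE and no AP-1 motif, were added after the values were seen. The motifs at FOSL1 +1.2 kb, FOSB -12.0 kb and FOSL2 +17.0 kb lay outside the siFra-1 peak, and the other AP-1 motifs shown lay inside the peaks of both lists.

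In peak number, all 8 member genes had fewer peaks in siFra-1 than in siCTL, with 121 and 82 peaks together. The ratio of siFra-1 to siCTL was 0.678 (0.506 to 0.904, Clopper-Pearson interval). This direction is that of most genes. Of 19246 protein-coding genes with a peak within 100 kb, 85.8% had fewer siFra-1 peaks, and the ratio of the whole lists was 0.474 (0.469 to 0.480). Over peaks of all widths, the loss at the member genes was therefore smaller than over the whole lists, by more than counting error. Peak width differed between the lists as well. The narrowest peaks, of 100 bp, made up 83.4% of the siCTL list and 69.9% of the siFra-1 list, peaks of 150 or 200 bp made up 12.2% and 14.8%, and peaks of at least 250 bp, called wide here, made up 4.41% and 15.2%. At the member genes 89 siCTL peaks were of 100 bp, 16 of 150 or 200 bp and 16 wide, whereas the siFra-1 peaks numbered 47, 18 and 17.

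The ratio was also taken within each width class, where the numbers are smaller. Peaks of 100 bp fell from 89 to 47 at the member genes, a ratio of 0.528 (0.363 to 0.760), whose interval holds the whole-list ratio of 0.398. Peaks of 150 or 200 bp numbered 16 and 18, a ratio of 1.13 (0.542 to 2.36), with the whole-list ratio of 0.577 near the lower bound. Wide peaks numbered 16 and 17, a ratio of 1.06 (0.505 to 2.25), and this interval holds the whole-list ratio of 1.64. The whole lists had 3655 and 5989 wide peaks. The member ratio was thus above the whole-list ratio for peaks of up to 200 bp and below it for wide peaks. In no class was the difference more than counting error. Wide peaks, the class with the highest whole-list ratio, made up 16 of the 121 member siCTL peaks and 4.41% of the siCTL list. How far this width mix accounts for the smaller loss over all widths was not tested. Peaks covered 19400 bp in siCTL and 16150 bp in siFra-1 at the member genes, a ratio of 0.832, against 0.632 for the whole lists. The wide peaks alone covered 7900 bp and 8350 bp. The member peaks were also richer in G and C, with a median of 53.5% in siCTL and 54.75% in siFra-1 over 200 bp, against 44% and 45% over all peaks, and the part of base composition in these ratios was not tested.

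**Figure D1:**
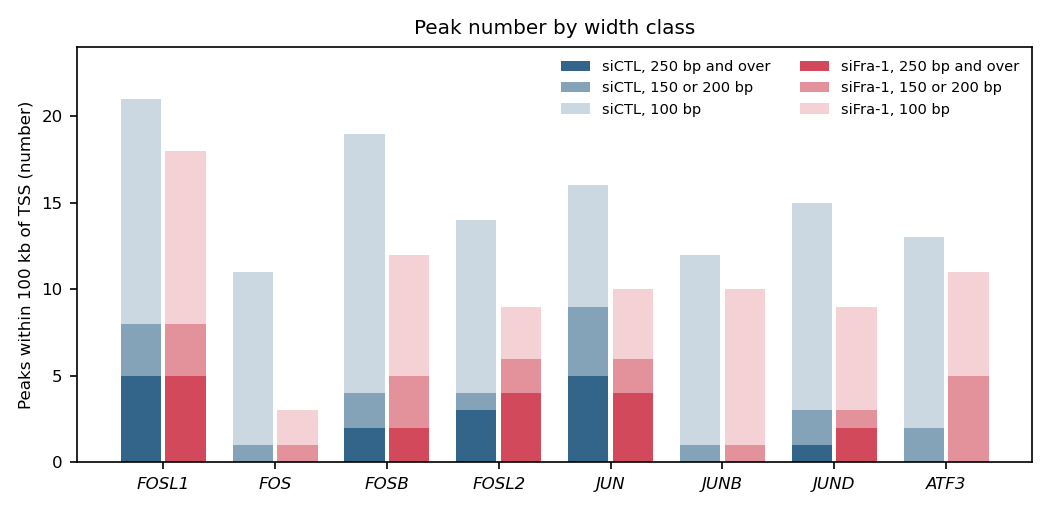
Number of p300/CBP peaks (y axis) with their centre within 100 kb of the TSS of each member gene (x axis), with siCTL in blue and siFra-1 in red and the shades giving 3 classes of peak width. Each siFra-1 bar is lower than its siCTL bar, from 21 and 18 peaks at FOSL1 to 11 and 3 at FOS, and the darkest segments (250 bp and over) are of equal height at FOSL1 and FOSB and absent at FOS, JUNB and ATF3.

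Wide peaks were not spread evenly. Over all 20163 protein-coding genes, 68.2% had no wide peak in either list within 100 kb, 22.2% had at least 1 in siCTL, and 0.823% had at least 5. FOSL1 and JUN had 5 each in siCTL, FOSL2 had 3, FOSB had 2 and JUND had 1. FOS, JUNB and ATF3 had none in either list. In siFra-1 the number was the same at FOSL1 and FOSB, lower at JUN by 1 peak, and higher by 1 peak at both FOSL2 and JUND. Among the 6403 protein-coding genes with a wide peak in either list, 22.9% had fewer in siFra-1, 49.5% had more and 27.6% had as many in both, so both directions and equality were common elsewhere too.

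Peak positions were shared between the lists mainly where peaks were wide. A peak was called shared when it overlapped a peak of the other list by at least 1 bp. At the member genes 24 of 121 siCTL peaks were shared (19.8%, Wilson interval 13.7 to 27.8%), against 9.56% of all siCTL peaks, and 24 of 82 siFra-1 peaks (29.3%, 20.5 to 39.9%), against 19.1% of all siFra-1 peaks. Over peaks of all widths, both shares lay above those of the whole lists by more than counting error. Wide peaks, the class most often shared, were 16 of the 121 member siCTL peaks, against 4.41% of the siCTL list. In siFra-1 they were 17 of 82, against 15.2%. How far this width mix accounts for the higher shares was not tested. By class, 5 of 89 siCTL peaks of 100 bp were shared (5.62%, against 3.79% of all), 3 of 16 of 150 or 200 bp (18.8%, against 21.7%) and 16 of 16 wide peaks (100%, 80.6 to 100%, against 85.0%). In siFra-1 the shared peaks numbered 4 of 47 (8.51%, against 6.56%), 4 of 18 (22.2%, against 28.1%) and 16 of 17 wide peaks (94.1%, 73.0 to 99.0%, against 68.2%). Thus every wide siCTL peak at these genes had a siFra-1 peak over it, and the single wide peak seen in 1 list alone was a siFra-1 peak beside FOSL2. For the siCTL wide peaks the share of all such peaks, 85.0%, is inside the interval of the member share, and for the siFra-1 wide peaks the share of all, 68.2%, is below it.

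**Figure D2:**
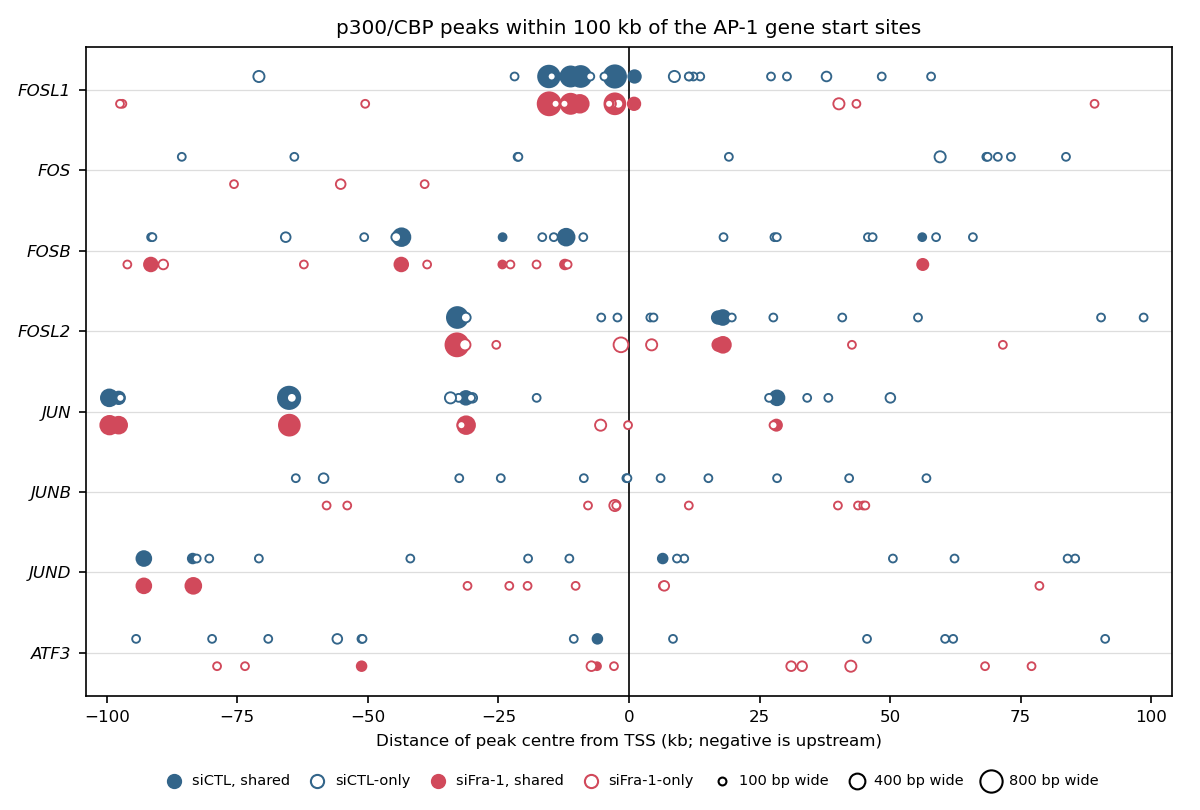
Distance of each peak centre from the TSS of its member gene (x axis, kb, negative upstream), with a row of siCTL peaks in blue and a row of siFra-1 peaks in red for each gene, filled where the peak was shared, and circle area growing with peak width. The filled large circles lie in matched positions in both rows, with a group of 5 close to the FOSL1 start. The small open circles of the 2 rows mostly lie apart, and they fill the FOS and JUNB rows and most of the ATF3 rows.

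FOSL1, the gene of the depleted protein, had 21 siCTL and 18 siFra-1 peaks (ratio 0.857, 0.431 to 1.69), and the interval holds both 1 and the whole-list ratio. Covered length was 5000 bp and 4450 bp, with 3150 bp and 2950 bp in the wide peaks. All 5 wide siCTL peaks lay in the stretch from 20 kb upstream to 2 kb downstream of the start, in a span of 16.9 kb, and all 5 wide siFra-1 peaks lay there in a span of 16.8 kb. Such grouping was uncommon, as 5.61% of all wide siCTL peaks and 9.92% of all wide siFra-1 peaks were among 5 or more wide centres within 20 kb. The limits of 5 peaks and 20 kb match the FOSL1 group itself, so these shares are descriptive only.

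The peak at +1.07 kb, in an intron of FOSL1, was 250 bp in both lists, at chr11:65666852-65667101 in siCTL and at chr11:65666952-65667201 in siFra-1, so it was moved by 100 bp with no change in width. The peak at -2.71 kb (chr11:65670352-65671151 in siCTL), whose nearest protein-coding start is that of FOSL1, was 800 bp in siCTL and 700 bp in siFra-1 with the same centre. The next, at -9.26 kb (chr11:65676952-65677651), was 700 bp and 500 bp. These 3 thus overlapped their siFra-1 partners, and the wider ones were narrower in siFra-1 by 100 to 200 bp. The peak at -11.2 kb (chr11:65678902-65679551) was the same 650 bp in both lists. The farthest wide peak, at -15.3 kb (chr11:65683002-65683751), was 750 bp in siCTL and 850 bp in siFra-1. These last 3 lay between genes and nearer to the start of C11orf68, a neighbouring gene, than to that of FOSL1, and they differed by 200 bp or less between the lists in either direction.

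A sixth shared peak at FOSL1, at -12.6 kb, was 100 bp in both lists. In the stretch from 20 kb upstream to 2 kb downstream there were 9 siCTL and 12 siFra-1 peaks, which covered 3550 bp and 3750 bp. In the rest of the FOSL1 window there were 12 siCTL and 6 siFra-1 peaks, none of them shared and none over 200 bp. The stretch holds every wide peak of the window, so the rest has none because of where its limits were set. Sharing is also rare among the narrowest peaks, at 3.79% of all siCTL and 6.56% of all siFra-1 peaks of 100 bp. By these counts and with these limits, the lower peak number at FOSL1 in siFra-1 came from narrow peaks away from the wide group. Near the start the siFra-1 list held more. Several siFra-1 peaks there stood close together, such as those of 100 or 150 bp at -3.43, -3.66 and -3.81 kb. With peaks within 500 bp merged, the FOSL1 window had 19 siCTL and 12 siFra-1 peaks (ratio 0.632, 0.280 to 1.37). The larger siFra-1 number near the start thus depends on counting close peaks apart.

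**Figure D3:**
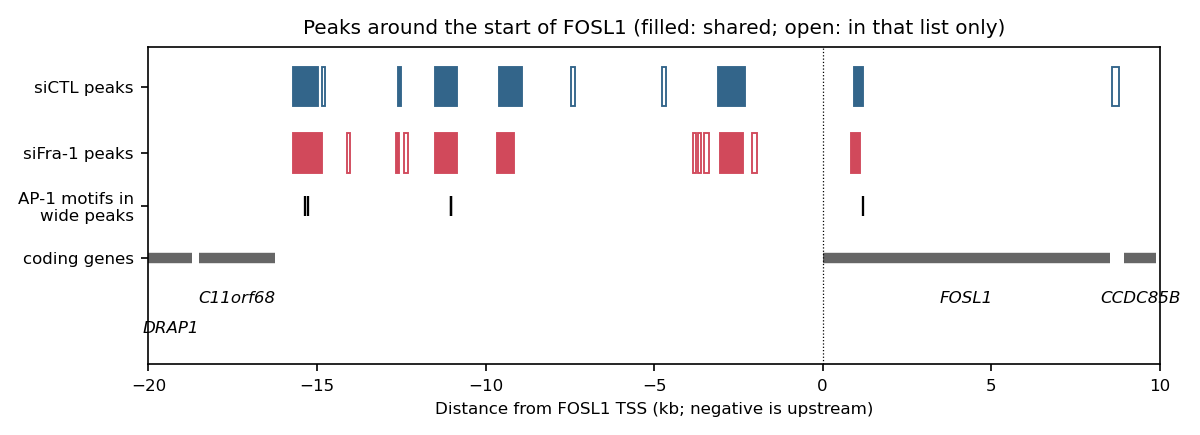
Peaks of siCTL (blue) and siFra-1 (red) drawn to scale against distance from the FOSL1 TSS (x axis, kb, negative upstream), filled where shared and open where seen in that list alone, with AP-1 motifs of the wide peaks as ticks and protein-coding genes as grey bars. The 5 wide peaks, from 250 to 850 bp, stand in matched places in both rows, 4 of them between C11orf68 and FOSL1 and 1 inside FOSL1, and 5 AP-1 motifs fall in 3 of them, those of the peak at -11.2 kb being too close to tell apart at this scale.

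FOSL2 encodes Fra-2, the closest relative of Fra-1. Its window had 14 siCTL and 9 siFra-1 peaks (ratio 0.643, 0.245 to 1.59), yet covered length was 2450 bp and 2550 bp, because the siFra-1 peaks were wider. The peak at -32.9 kb (chr2:28582102-28582801), between genes, was 700 bp in siCTL and 850 bp in siFra-1. Inside the gene, an intronic peak at +17.1 kb (chr2:28632252-28632501) was 250 bp in both lists, with the siFra-1 peak moved by 100 bp, and one at +18.0 kb (chr2:28633102-28633451) was 350 bp and 400 bp. These 3 shared peaks were as wide or wider in siFra-1. A siFra-1 peak of 350 bp at -1.54 kb (chr2:28613602-28613951), in an intron of the antisense transcript FOSL2-AS1 and reaching within 1.5 kb of the start, had no siCTL partner and was the only wide peak of the member genes in 1 list alone. The other peaks of the gene body were narrow, with siCTL-only peaks of 100 bp at +4.09, +4.69 and +19.7 kb and a siFra-1-only peak of 200 bp at +4.34 kb.

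FOSB encodes a close relative of Fos. Its window had 19 siCTL and 12 siFra-1 peaks (ratio 0.632, 0.280 to 1.37), covering 2750 bp and 1800 bp, and 5 peaks of each list were shared. No peak reached the FOSB gene itself or 1.5 kb of its start. The peak at -43.6 kb (chr19:45927452-45927951 in siCTL), in an intron of the DNA repair gene ERCC1, was 500 bp in siCTL and 300 bp in siFra-1. The peak at -12.0 kb (chr19:45959002-45959451 in siCTL), also in an ERCC1 intron, was 450 bp in siCTL, and its siFra-1 partner was 150 bp and overlapped it by 50 bp. A second siFra-1 peak, of 100 bp at -11.8 kb (chr19:45959452-45959551), began directly after the end of the siCTL peak and was not shared. The overlapping pair was the largest narrowing among the 24 shared pairs, a fall by 300 bp. In the opposite direction, the peak at -91.5 kb was 100 bp in siCTL and 300 bp in siFra-1, and that at +56.1 kb was 100 bp and 200 bp.

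FOS encodes the first described member of the family and is the least crowded window. It had 11 peaks in siCTL and 3 in siFra-1. Its ratio, 0.273 (0.0489 to 1.03), was the lowest of the 8 genes, and the interval reaches past 1. Covered length was 1200 bp and 350 bp. The siCTL peaks were 10 of 100 bp and 1 of 200 bp, the siFra-1 peaks 2 of 100 bp and 1 of 150 bp, and none was shared. No peak reached the gene body or 1.5 kb of the start, as the nearest siCTL centre was at +19.1 kb and the nearest siFra-1 centre at -39.1 kb. FOS thus had narrow peaks alone. Of all peaks of 100 bp, 3.79% in siCTL and 6.56% in siFra-1 were shared, so the lack of shared peaks among so few is near the whole lists.

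JUN encodes c-Jun, the main partner of Fos proteins. Its window had 16 siCTL and 10 siFra-1 peaks (ratio 0.625, 0.254 to 1.46), covering 3500 bp and 3000 bp, and 5 peaks of each list were shared. The wide peaks were far from the gene, most of them along the upstream non-coding RNA gene LINC01135. At -65.1 kb (chr1:59314402-59315201 in siCTL) the peak was 800 bp in siCTL and 700 bp in siFra-1, the widest at JUN in both lists. At -31.2 kb (chr1:59280802-59281101 in siCTL), it was 300 bp and 500 bp. At -97.7 kb (chr1:59347302-59347551 in siCTL), it was 250 bp and 450 bp, and at -99.5 kb (chr1:59349002-59349451 in siCTL), 450 bp and 550 bp. These last 3 were therefore wider in siFra-1. Downstream, in an intron of the non-coding gene ENSG00000283445, the peak at +28.3 kb (chr1:59221202-59221551 in siCTL) was 350 bp and 200 bp. Both peaks near 100 kb would be lost with a slightly smaller window, and just beyond its edge siFra-1 had a peak of 450 bp that was not counted.

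At the JUN start itself, siCTL had no peak and siFra-1 had a peak of 100 bp at -0.181 kb (chr1:59249852-59249951). It lies within the 250 bp before the TSS, which are shown here on the minus strand, the strand of the gene, with TGACATCA in capitals.
JUN promoter, chr1:59249721-59249970: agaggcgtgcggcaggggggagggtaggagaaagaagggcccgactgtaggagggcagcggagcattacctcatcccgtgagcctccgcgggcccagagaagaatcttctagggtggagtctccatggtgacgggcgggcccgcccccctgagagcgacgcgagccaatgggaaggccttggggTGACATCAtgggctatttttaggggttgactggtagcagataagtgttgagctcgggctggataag
The motif, 59 bp before the TSS, was in no peak of either list. Among promoters of this length of all 20163 protein-coding genes, 1.79% hold TGACATCA on either strand. ATF3 has the same motif 43 bp before its annotated start, and JUND has TGACGTCA 193 bp before its start, a motif held by 1.88% of promoters, and both likewise were in no peak. None of the 8 promoters holds TGAGTCA or TGACTCA, which 3.34% of promoters hold.

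JUNB and JUND encode the other Jun partners of Fra-1. JUNB had 12 siCTL and 10 siFra-1 peaks (ratio 0.833, 0.323 to 2.10), covering 1250 bp and 1100 bp. All were of 100 bp except 1 in each list, and none was shared. Of all peaks of 100 bp, 3.79% in siCTL and 6.56% in siFra-1 were shared, so the lack of shared peaks at JUNB is near the whole lists. The nearest were siCTL-only peaks of 100 bp at -0.498 and -0.298 kb, in an annotated intron of the neighbouring gene HOOK2, whereas the nearest siFra-1 peaks were at -2.70 kb, 200 bp wide, and at -2.45 kb, 100 bp wide. JUND had 15 siCTL and 9 siFra-1 peaks (ratio 0.60, 0.232 to 1.46), covering 1850 bp and 1500 bp, with 3 shared in each list. Its peak at -92.9 kb (chr19:18485152-18485501) was the same 350 bp in both lists and has its centre 0.2145 kb from the start of GDF15, a stress-induced cytokine gene. The peak at -83.5 kb, in an exon of PGPEP1, was 150 bp in siCTL and 400 bp in siFra-1, the largest widening among the 24 shared pairs. The third, at +6.46 kb, was 150 bp and 100 bp. No peak reached the JUND gene or 1.5 kb of its start.

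ATF3 encodes a stress-induced protein that pairs with Jun proteins. It had 13 siCTL and 11 siFra-1 peaks (ratio 0.846, 0.343 to 2.05), which covered 1400 bp in each list, with 2 shared. The shared peaks, at -51.2 kb and -6.05 kb, were 100 bp and 150 bp in siCTL and 150 bp and 100 bp in siFra-1. In the gene body siCTL had peaks of 100 bp at +8.43 and +45.6 kb, and siFra-1 had peaks of 150 bp at +31.1 and +33.2 kb and of 200 bp at +42.5 kb, none of them shared. The siFra-1 peak at +42.5 kb is the one nearest to the start of the canonical ATF3 transcript, which lies 43.427 kb downstream of the annotated gene start used here.

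**Figure D4:**
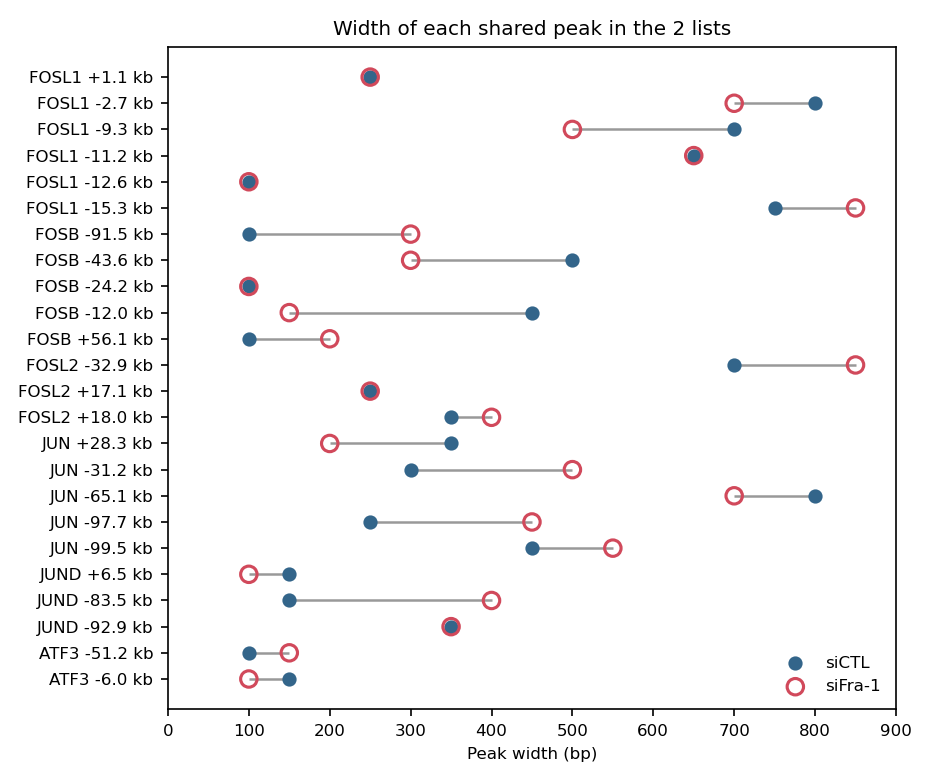
Width in bp (x axis) of each of the 24 shared peaks in siCTL (filled blue) and siFra-1 (open red), named by gene and distance from the TSS (y axis), with a line joining the widths. Lines run in both directions, from a fall of 450 to 150 bp at FOSB to a rise of 150 to 400 bp at JUND, and 6 pairs have the same width.

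Over the 24 shared pairs, 10 were wider in siFra-1 (41.7%), 8 were narrower (33.3%) and 6 were of equal width (25%), with a median difference of 0 bp. Over all 8159 pairs of the whole lists 55.1% were wider, 24.5% narrower and 20.4% equal, with a median of 50 bp wider in siFra-1. To avoid choosing pairs through siFra-1 width, the 16 pairs whose siCTL peak was wide were taken apart, of which 6 were wider, 6 narrower and 4 equal in siFra-1, with a median difference of 0 bp. The same over the whole lists, 3320 pairs, gave 47.7% wider and 41.2% narrower, also with a median difference of 0 bp. Choosing by siCTL width can in turn favour narrowing in siFra-1. With a wide peak in either list, 8 of 18 member pairs were wider, 6 narrower and 4 equal, with a median difference of 0 bp. In the whole lists that choice, 5469 pairs, gave 68.3% wider and 25.0% narrower, with a median of 150 bp wider in siFra-1. By either choice, shared wide peaks at the AP-1 genes showed no common direction of change in width.

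In sequence, AP-1 motifs were looked for as TGAGTCA or TGACTCA on either strand. Over 200 bp at the peak centre, 12 of 121 siCTL peaks held one (9.92%, 5.76 to 16.5%), against 6.15% of all siCTL peaks, and windows moved by 2 kb held one in 4 cases (3.31%), against 3.10% for all. In siFra-1 8 of 82 held one (9.76%, 5.03 to 18.1%), against 9.08% of all siFra-1 peaks, and moved windows did in 3 cases (3.66%), against 3.29% for all. The whole-list shares lie inside both intervals. Searched over their whole length, which is more than 200 bp, wide peaks held the motif in 10 of 16 siCTL peaks (62.5%, 38.6 to 81.5%), against 41.6% of all wide siCTL peaks, and in 7 of 17 siFra-1 peaks (41.2%, 21.6 to 64.0%), against 32.5% of all. Over the central 200 bp the wide peaks held it in 7 of 16 and 6 of 17 cases (43.8% and 35.3%), for which no share over all wide peaks is given here. The whole-length shares are within counting error of the whole lists.

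Of the 11 shared pairs at the member genes whose siCTL peak held an AP-1 motif, 4 had a siFra-1 peak that did not cover one (36.4%, 15.2 to 64.6%), against 15.5% of such pairs in the whole lists, a share inside the interval. These were the FOSL1 peaks at +1.07 and -12.6 kb, the FOSB peak at -12.0 kb and the FOSL2 peak at +17.1 kb. The motif was searched here over the whole peak. Over the central 200 bp, the FOSL1 peak at -12.6 kb held it in both lists and that at +1.07 kb in neither. At -12.6 kb both peaks were of 100 bp, with centres 50 bp apart. Of the 7 pairs whose siFra-1 peak held the motif, 0 lacked it in siCTL, against 25.4% in the whole lists, and the upper bound of the interval is 35.4%. In the FOSL1 and FOSL2 intron peaks the width was equal in both lists and the siFra-1 peak stood 100 bp to the side, which left the motif printed above just outside it. The FOSL1 motif pairs at -15.3 and -11.0 kb were inside the peaks of both lists.

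Set against other genes with many peaks, 7 of the 8 member genes had a higher ratio than most. The genes compared were picked by their siCTL peak number, the denominator of the ratio, which can favour low ratios among them. The members were picked by name, so the shares that follow are descriptive only. Of 6100 protein-coding genes with at least 10 siCTL peaks within 100 kb, 5.69% had a ratio at or above that of FOSL1, 5.90% at or above that of ATF3 and 6.69% at or above that of JUNB. The ratios of FOSL2, FOSB, JUN and JUND were reached or passed by 20.2%, 21.4%, 21.8% and 25.3%, and that of FOS by 76.4%. The medians of the 8 member genes were 14.5 siCTL and 10 siFra-1 peaks, those of the 6100 genes 13 and 6, and those of all 20163 genes 6 and 2. In the order of ratios, from FOSL1 (0.857) through ATF3, JUNB, FOSL2, FOSB, JUN and JUND to FOS (0.273), the intervals of all neighbours overlapped, as did those of FOSL1 and FOS, so the order itself is within counting error.

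**Figure D5:**
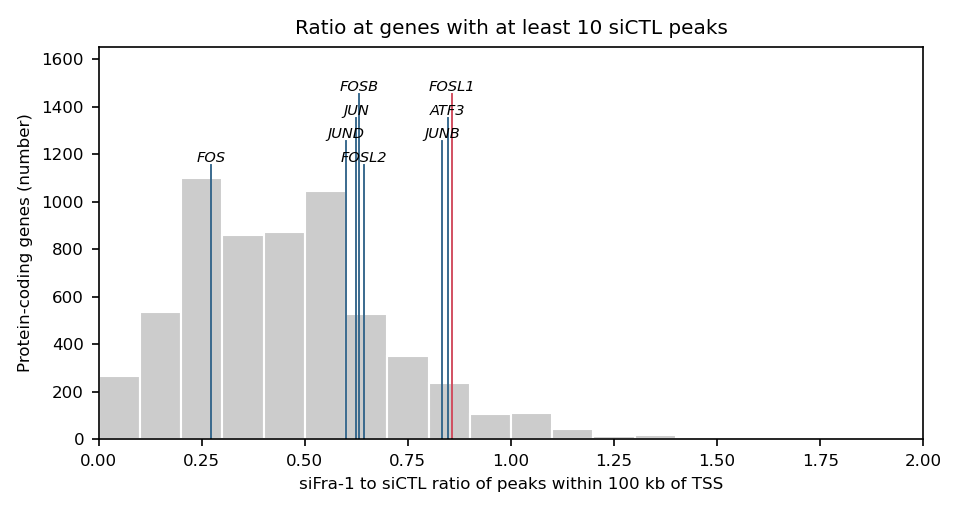
Number of protein-coding genes (y axis) by the siFra-1 to siCTL ratio of peaks within 100 kb of the TSS (x axis, linear), over the 6100 genes with at least 10 siCTL peaks, with a line for each member gene. FOSL1 (0.857, red), ATF3 and JUNB stand in the right tail, FOSL2, FOSB, JUN and JUND near 0.6 to the right of most genes, and FOS (0.273) in the tallest part of the distribution.

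The 16 other genes of the wider AP-1 superfamily examined, which encode further ATF, BATF, JDP and Maf proteins, were lower as a group. They had 180 peaks in siCTL and 77 in siFra-1, which gives a ratio of 0.428 (0.323 to 0.562), whose interval holds the whole-list ratio of 0.474 and overlaps that of the 8 member genes. Fewer peaks were found in siFra-1 at 13 of the 16 and more at 3, namely BATF3 (10 and 13), MAF (7 and 11) and MAFA (4 and 5). Of all protein-coding genes with a peak within 100 kb, 85.8% had fewer, so this count is near that of most genes. Among the genes with most peaks were MAFG, with 26 and 4, and ATF5, with 21 and 6, the first with a lower ratio than any of the 8 member genes and the second with a lower ratio than all but FOS. Wide peaks numbered 9 in siCTL and 7 in siFra-1, and 13 siCTL peaks (7.22%) and 12 siFra-1 peaks (15.6%) were shared. Some windows overlap, as 4 siCTL and 3 siFra-1 peaks of BATF3 also belong to ATF3, and 6 siCTL peaks of JDP2 also belong to FOS.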

How the data were processed

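The authors pooled replicate immunoprecipitations, sequenced 1 library per group, and binned the signal in 50 bp steps with PASHA, scaled it and subtracted background. Peaks were runs above a threshold of 25, with gaps of at most 50 bp and runs of at least 50 bp. The submitters' processing notes name Bowtie2 and hg19, and the study's methods name BWA-backtrack. A processing parameter of unstated meaning was larger for siFra-1. A fixed threshold after scaling lets library quality change peak number and width as occupancy would, and a missing peak is not missing signal.

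The deposited lists, per the file headers and values, hold peak chromosome, start and end in bp and no other measure. Starts were raised by 1 for printing and may be 1 bp off. Genes came from GENCODE release 44 on GRCh37. Overlaps, motifs and intervals (Wilson for shares, Clopper-Pearson for ratios) were computed with Python 3.11.15, numpy 2.4.6, pandas 2.3.3 and scipy 1.17.1. The overlap, window counting and AP-1 motif steps were tested on simulated data, where the overlaps were also checked with bedtools 2.31.1. Named were all peaks of at least 250 bp and all peaks reaching a member gene or 1.5 kb of its TSS, and of the other superfamily genes those with most peaks, of which 1 is not reported here. The members and lists were chosen with earlier results of these data known. With 1 library per group no test was run.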

Additional observations from a re-analysis of the deposited data

How the results depend on the processing

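No paired analysis was possible because each group is 1 library with no replicate number shared between groups. For the same reason no replicate could be left out, and peaks could not be filtered by height. The peak number ratio of the 8 genes turned from below to above 1 with peaks of at least 150 bp (1.09, 0.658 to 1.82), of at least 250 bp (1.06, 0.505 to 2.25) and with the siCTL list shortened by width to the length of the siFra-1 list (1.26, 0.90 to 1.77). By construction, the first 2 leave out the 100 bp peaks and the last drops most of those of siCTL. The number of genes with fewer siFra-1 peaks then was 1, 1 and 2, and it was 4 where the member was the nearest protein-coding start. Shared siCTL peaks rose to 53.1%, 87.5% and 32.1% in these 3 settings, and shared siFra-1 peaks to 48.6% and 82.4% in the first 2. In the central 200 bp, AP-1 motifs were in 25.0% and 43.8% of siCTL peaks and in 20% and 35.3% of siFra-1 peaks of at least 150 and 250 bp. When 400 bp were searched, they were in 14.9% of siCTL peaks and 24.4% of siFra-1 peaks. The matching shares over all peaks of the lists are not given here. Of 66 values under alternatives for the summed windows and FOSL1, 49 stayed within their interval or 1.5 times the main value, 14 moved and 3 turned direction. A turn was counted only for a peak number ratio whose main interval excluded 1, so other values that crossed 1 are among the 49. The covered length ratio (0.832) became 1.09, 1.06 and 1.17 in the 3 settings where the peak number ratio turned. It stayed below 1 in the others. The FOSL1 ratio (0.857) became 1.5 where FOSL1 was the nearest protein-coding start and 1.41 with the shortened siCTL list. Elsewhere it stayed at or below 1. At single genes, 51 of 53 stayed within the interval, the exceptions being ATF3 (2.5 at 150 bp) and JUND (2 at 250 bp). The ratios of FOS, JUNB and ATF3 at 250 bp could not be computed, as no such peak exists. Taking the canonical transcript start, an alternative chosen after seeing the data, left every value within its interval. The unknown read depth limits all absent peaks.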
